A study of Mus musculus with 10 samples.

Results

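The proteasome is the large protease that breaks down proteins marked with ubiquitin, and its genes were examined here in the testis of mice with and without Crem, a cAMP-responsive transcription factor needed by spermatids. The genes were chosen by name: every array row with exactly 1 annotated gene symbol starting with Psma, Psmb, Psmc, Psmd, Psme, Psmf or Psmg. Such rows numbered 56 and stood for 50 genes, of which 47 had values, each from 1 row, among 19661 genes with values in all. The rows of Psma3, Psma4 and Psmd11 were empty in every array, so these subunits were not analysed here. Of the 47 genes, 45 encode subunits, activators, an inhibitor or assembly chaperones of the proteasome. The other 2 share only the prefix: Psmc3ip encodes a partner of the meiotic recombinases and Psme3ip1 a protein that binds the activator encoded by Psme3.

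Whole testes of 5 Crem-/- mice (KO) and of 5 wild-type (WT) mice were measured on Mouse Gene 1.0 ST arrays of Affymetrix, with 1 mouse per array. WT and KO mice had a mixed background (129Pas x C57Bl/J) and were untreated, 8 weeks old and killed at lights-on, and the KO mice lacked functional Crem in all cells and not in germ cells alone. According to the study, sperm development in such males stops at the round spermatid. Batch 2 held 3 WT arrays and KO replicate 3, batch 4 held WT replicate 5 and KO replicates 1, 4 and 5, batch 1 held KO replicate 2 and batch 3 held WT replicate 4. Levels are log2 values, so a difference of 1 is a doubling, and since each gene has its own probes a level of one gene cannot be set against that of another. With so few mice the precision is limited, the median SE over all features being 0.0765. In the study's list of adult testis RNA, integrity where measured was higher in every KO than in every WT sample. The part of this in the changes was not tested.

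The core of the proteasome, the 20S particle, is a barrel of alpha and beta rings whose beta subunits Psmb5, Psmb6 and Psmb7 cut proteins. The 19S particle binds to its ends, recognises ubiquitin and unfolds the substrate with a ring of ATPases (Psmc genes), beside which the base and lid subunits (Psmd genes) sit. Cells exposed to interferon replace the cutting subunits by Psmb8, Psmb9 and Psmb10 and make the activator PA28 from Psme1 and Psme2. Germ cells carry a form of their own, in which Psma8 takes the place of its close relative Psma7, and the activator PA200, encoded by Psme4, is known for the removal of acetylated histones in spermatids.

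In KO testis most standard subunits were modestly up-regulated, whereas a few members were clearly down-regulated. The immune subunits were not called in either direction, nor were Psmb5 and Psmb6, the standard counterparts of Psmb8 and Psmb9. Of the 28 measured standard subunits of the 20S and 19S particles that are named by prefix, 19 were higher, 1 was lower and 8 were not called. Sem1, a lid subunit without the prefix, is given with the partners below. Among the 47 genes 28 were higher and 5 lower in KO, and 14 were not called (limma, adjusted p under 0.05 over all features). Over all 25689 features 27.9% were called higher and 12.4% lower. Standard subunits are bright on this array, however, and among the 5835 features within the range of their mean levels 51.0% were called higher and 14.9% lower. The median log2 change was 0.28 over the 47 genes, 0.29 over the 28 standard subunits, 0.20 over the features of similar level and 0.05 over all features.

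**Figure D1:**
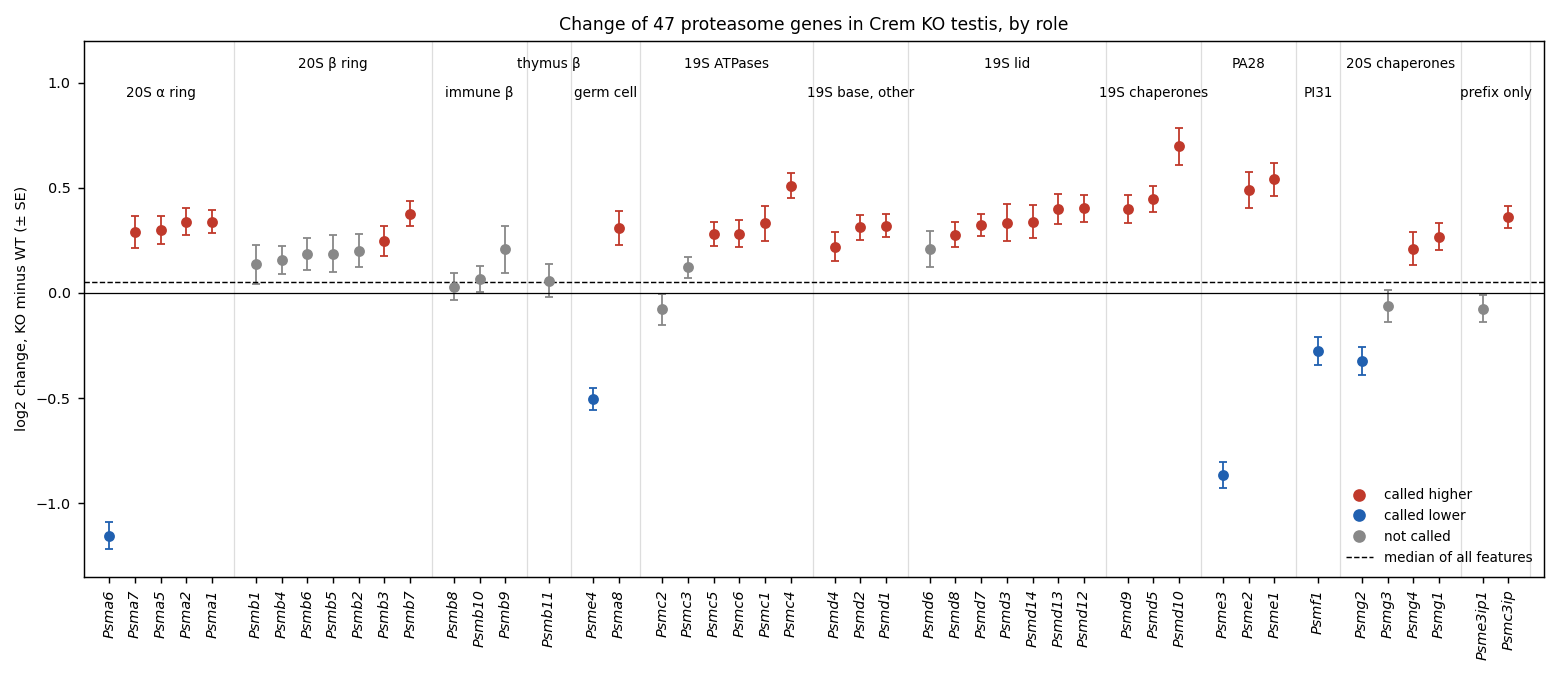
Log2 change between KO and WT (vertical axis, with the standard error of the fit) of the 47 genes, grouped by role and coloured by their call; the dashed line is the median change of all features. The standard subunits other than Psma6 lie between −0.08 and 0.51, Psma6 (−1.15), Psme3 (−0.86) and Psme4 (−0.50) lie lowest, and the 3 immune subunits lie between 0.03 and 0.21.

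**Figure D2:**
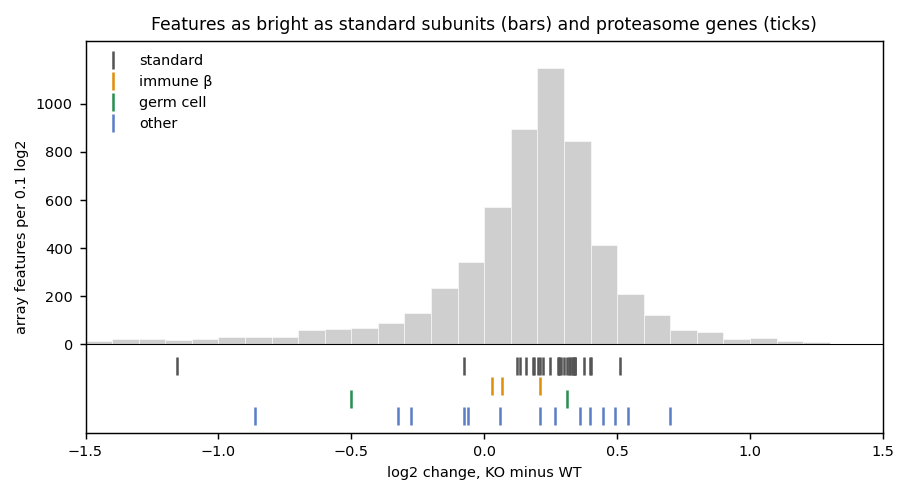
Log2 changes (horizontal axis) of the 5835 features whose mean level lies within that of the standard subunits, counted in equal steps (bars, vertical axis; changes beyond the ends of the axis are not drawn), with the members as ticks below. The standard subunits, with a median of 0.29, sit slightly to the right of the centre of these features, at 0.20, and Psma6 sits far to the left of both.

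Markers of several testis cell types differed between the groups as well. Crem itself stood at 10.95 ± 0.06 in WT and 9.24 ± 0.15 in KO (SD, n = 5 each), so that KO minus WT was −1.71 ± 0.07 (limma SE, adjusted p = 3.0e-10). Of 8 markers of elongating spermatids all 8 were lower, with a median log2 change of −5.05, and the log2 of their summed level was 15.97 to 16.22 in WT and 11.81 to 12.99 in KO. Of 9 measured spermatocyte markers 6 were higher and none lower (median 0.24, log2 summed level 13.97 to 14.07 in WT and 14.14 to 14.24 in KO). Of 8 markers chosen for round spermatids 5 were lower and 1 higher (median −0.40, log2 summed level 14.51 to 14.62 and 14.14 to 14.32). Changes of these 8 were uneven, from −5.08 in Sun5 to 0.26 in Spag6. Of 12 macrophage and leukocyte markers 10 were higher and 1 lower, the latter being Aif1, at −2.80. Aif1 had the highest WT level of them, at 11.83, and so weighs most in their sum. The log2 summed level was 12.33 to 12.49 in WT and 11.52 to 12.04 in KO. The mean of the log2 levels of the 12 markers was 7.45 to 7.54 in WT and 7.63 to 8.09 in KO. Called higher were also 4 of 5 Leydig cell, 3 of 9 Sertoli cell, 3 of 6 endothelial and myoid and 2 of 7 spermatogonial markers, the last with 1 lower. Over all features 27.9% were called higher and 12.4% lower, and over those as bright as the standard subunits 51.0% and 14.9%. The Sertoli cell and spermatogonial counts of higher markers lay near the share of all features. None of these cell type markers lay in the lowest 25% of levels. The part of these shifts in the changes below was not tested, and in whole testis fewer cells of a type and less RNA per cell cannot be told apart.

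The promoters of 5 members with large changes are shown first, because CREM binds the cAMP response element (CRE) and NFE2L1, the activator known for proteasome genes, binds the antioxidant response element (ARE). They are RefSeq sequences of build GRCm38.p6, from 100 bases before to 10 bases after the annotated start of transcription, 5′ to 3′ on the strand of the gene. Capitals mark a CRE core (TGACG, or CGTCA on the other strand) or the ARE core (TGACNNNGC, or GCNNNGTCA on the other strand), which overlap where both are present. The first 4 sequences belong to the 3 genes with the largest falls. The last 2 belong to the standard subunit and the chaperone with the largest rises among the members.
Psma6, start 1, chr12:55384122-55384231, plus strand: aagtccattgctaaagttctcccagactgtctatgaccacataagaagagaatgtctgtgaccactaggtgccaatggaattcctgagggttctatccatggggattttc
Psma6, start 2, chr12:55398725-55398834, plus strand: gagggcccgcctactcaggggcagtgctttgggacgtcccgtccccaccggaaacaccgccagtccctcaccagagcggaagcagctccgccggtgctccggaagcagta
Psme3, chr11:101316113-101316222, plus strand: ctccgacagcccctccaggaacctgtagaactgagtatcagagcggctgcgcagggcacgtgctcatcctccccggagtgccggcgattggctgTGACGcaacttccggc
Psme4, chr11:30771675-30771784, plus strand: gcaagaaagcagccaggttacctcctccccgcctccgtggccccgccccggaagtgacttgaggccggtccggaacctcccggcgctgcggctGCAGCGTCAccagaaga
Psmc4, chr7:28050083-28050192, minus strand: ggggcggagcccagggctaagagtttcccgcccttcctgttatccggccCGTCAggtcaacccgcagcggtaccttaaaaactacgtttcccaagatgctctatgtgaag
Psmd10, chrX:140956702-140956811, minus strand: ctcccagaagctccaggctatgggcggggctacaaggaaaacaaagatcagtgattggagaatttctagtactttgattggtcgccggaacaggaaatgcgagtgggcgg

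Psma6 has 2 annotated starts 14603 bases apart, and neither stretch held one of these motifs. In Psme3 and Psme4 a CRE core lay close to the start, in Psme4 as part of an ARE core on the other strand, and in Psmc4 a CRE core lay further upstream. The stretch of Psmd10 held none. Windows from 250 bases before to 50 after the start were found for 39 of the 47 members. The full CRE (TGACGTCA) was found in none of the 39, against 2.03% of 27025 genes with a window. The CRE core was found in 19 of the 39 (48.7%), against 23.0% of all genes, and the 19 comprised 11 of 24 higher, 2 of 4 lower and 6 of 11 uncalled members. The ARE core was present in 6 (15.4%, against 14.0% of all genes) and the core of the interferon-stimulated response element in 5 (12.8%, against 3.99%), which were Psmb3, Psmd4, Psmd9, Psme1 and Psmg4. These matches describe the letters only and were not tested.

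The alpha ring, which gates the entry to the barrel, was split. Psma6 was the single standard subunit that was lower in KO. Its level was 12.16, 12.15, 12.15, 12.14 and 12.07 in WT replicates 1 to 5 and 10.97, 11.15, 10.95, 11.00 and 10.83 in KO replicates 1 to 5. The highest KO array lay 0.92 below the lowest WT array. KO minus WT was −1.15 ± 0.06 (SE, limma adjusted p = 4.0e-09), or 2.23-fold lower, with −1.20 in batch 2 and −1.14 in batch 4. The feature averages probes along the gene and cannot show which of its transcripts fell.

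The other 4 measured alpha subunits were all higher. Psma1 was 9.71, 9.81, 9.75, 9.83 and 9.77 in WT replicates 1 to 5 and 10.13, 10.12, 10.06, 10.19 and 10.06 in KO replicates 1 to 5. It rose by 0.34 ± 0.05 (SE, limma adjusted p = 1.9e-04) and Psma2 by 0.34 ± 0.06 (SE, limma adjusted p = 8.8e-04), with KO arrays above all WT arrays in both. Psma5 rose by 0.30 ± 0.07 (SE, limma adjusted p = 0.00237). Psma7 was 8.71, 8.78, 8.66, 8.91 and 8.62 in WT replicates 1 to 5 and 9.07, 8.87, 9.22, 9.04 and 8.94 in KO replicates 1 to 5, a rise of 0.29 ± 0.08 (SE, limma adjusted p = 0.00865) in which KO replicate 2 lay below WT replicate 4.

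In the beta ring all 7 standard subunits had positive changes, of 0.14 to 0.38, but only Psmb7 and Psmb3 passed the test. Psmb7, the subunit with trypsin-like activity, was 11.38, 11.24, 11.37, 11.32 and 11.26 in WT replicates 1 to 5 and 11.67, 11.61, 11.68, 11.82 and 11.66 in KO replicates 1 to 5. Its groups did not overlap, and it rose by 0.38 ± 0.06 (SE, limma adjusted p = 1.7e-04). Psmb3 rose by 0.25 ± 0.07 (SE, limma adjusted p = 0.0138). The cutting subunit Psmb5 was 9.53, 9.50, 9.37, 9.66 and 9.86 in WT replicates 1 to 5 and 9.87, 9.60, 9.76, 9.89 and 9.73 in KO replicates 1 to 5. Psmb6 was 11.37, 11.37, 11.14, 11.41 and 11.33 in WT replicates 1 to 5 and 11.53, 11.27, 11.58, 11.60 and 11.56 in KO replicates 1 to 5. The groups overlapped in either gene, and Psmb5 (0.19 ± 0.09, limma adjusted p = 0.116) and Psmb6 (0.19 ± 0.08, 0.0698) were not called, nor were Psmb1, Psmb2 and Psmb4. Psmb1, the smallest change of the ring, was 9.20, 9.24, 8.99, 8.88 and 8.77 in WT replicates 1 to 5 and 9.12, 9.19, 9.08, 9.31 and 9.05 in KO replicates 1 to 5, with a change of 0.14 ± 0.09 (0.273). Without KO replicate 2, which lay apart from the other KO arrays in Psmb2 and Psmb6, 5 of the 7 were called higher. With batch as a block 4 were, Psmb2 (0.24, limma adjusted p = 0.0279) and Psmb6 (0.26, 0.0299) being added. That fit gives no weight to KO replicate 2 and WT replicate 4, each alone in its batch.

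Of the 19S subunits named by prefix, 13 of 16 measured were called higher and none lower. Among features as bright as the standard subunits 51.0% were called higher, and over all features 27.9%. In 13 of the 16 every KO array lay above every WT array, as it did in 19.5% of all features. That last share was not counted among features of similar level. Among the ATPases the largest change was that of Psmc4, which was 9.36, 9.31, 9.27, 9.37 and 9.33 in WT replicates 1 to 5 and 9.87, 9.71, 9.75, 9.91 and 9.94 in KO replicates 1 to 5. It rose by 0.51 ± 0.06 (SE, limma adjusted p = 1.4e-05), a 1.42-fold rise with no overlap, and Psmc1, Psmc5 and Psmc6 rose by 0.28 to 0.33. The ATPase gene Psmc3 (0.12 ± 0.05, limma adjusted p = 0.0790) was not called although its groups did not overlap. Psmc2 stood at 11.91, 11.71, 11.78, 11.86 and 11.71 in WT replicates 1 to 5 and 11.73, 11.73, 11.65, 11.93 and 11.55 in KO replicates 1 to 5. These arrays overlapped widely and its change, −0.08 ± 0.07, was not called and turned to 0.02 in batch 4.

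Of the other base subunits Psmd1 and Psmd2, which hold the base together, rose by 0.32 ± 0.05 and 0.31 ± 0.06 (SE, limma adjusted p = 3.4e-04 and 7.6e-04), and the ubiquitin receptor gene Psmd4 rose by 0.22 ± 0.07 (0.0217). Psmd1 was 10.66, 10.61, 10.65, 10.76 and 10.73 in WT replicates 1 to 5 and 11.05, 10.97, 10.96, 10.99 and 11.05 in KO replicates 1 to 5. Psmd4 was 10.48, 10.49, 10.45, 10.54 and 10.27 in WT replicates 1 to 5 and 10.71, 10.56, 10.82, 10.64 and 10.60 in KO replicates 1 to 5. The groups did not overlap in either gene, although in Psmd4 they were only 0.01 apart. The call of Psmd4 was lost without WT replicate 5 (0.18, limma adjusted p = 0.0557) and without KO replicate 3 (0.18, 0.0582). Of 7 measured lid genes named by prefix 6 rose, from 0.28 (Psmd8) to 0.40 (Psmd12). Psmd12 was 10.47, 10.54, 10.34, 10.57 and 10.50 in WT replicates 1 to 5 and 10.93, 10.89, 10.79, 11.01 and 10.82 in KO replicates 1 to 5, all KO arrays being higher than all WT arrays. Psmd14, whose product cuts ubiquitin from the substrate, rose by 0.34 ± 0.08 (SE, limma adjusted p = 0.00312). Psmd6 was 10.75, 10.79, 10.90, 10.56 and 10.60 in WT replicates 1 to 5 and 11.14, 11.00, 10.84, 10.94 and 10.73 in KO replicates 1 to 5. It alone was not called, at 0.21 ± 0.09 (limma adjusted p = 0.0725), and its change was 0.02 in batch 2 and 0.33 in batch 4.

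The mean level over the 28 standard subunits was 10.30 to 10.39 in the WT arrays and 10.49 to 10.62 in the KO arrays. The lowest KO array was replicate 2, the single array of batch 1, at 10.49, and the other 4 were at 10.53 to 10.62. KO replicate 2 was the lowest KO array in 15 of the 28 members called higher, and WT replicate 4, the single array of batch 3, the highest WT array in 15. The median change of the standard subunits was 0.32 in batch 2 and 0.35 in batch 4, while 0.21 and 0.20 were measured over the features of similar level.

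The germ cell members moved in opposite directions. Psma8 was 11.09, 11.20, 11.31, 11.33 and 11.27 in WT replicates 1 to 5 and 11.74, 11.36, 11.51, 11.69 and 11.46 in KO replicates 1 to 5. It rose by 0.31 ± 0.08 (SE, limma adjusted p = 0.00706), with the lowest KO array, at 11.36, just above the highest WT array, at 11.33. Its change was 0.31 in batch 2 and 0.36 in batch 4, and it was not called within either batch alone. Within an array, Psma8 minus Psma7 was 2.51 ± 0.13 in WT and 2.53 ± 0.15 in KO (SD, n = 5 each). The difference between the groups was 0.02 ± 0.09 (SE; exact two-sided permutation test, p = 0.849, adjusted over 5 pairs p = 0.921), so a change of Psma8 apart from that of Psma7 was not detected. Its sign turned to −0.20 in batch 2 and −0.0311 in batch 4.

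Psme4 fell. Its level was 12.14, 12.10, 12.15, 12.14 and 12.11 in WT replicates 1 to 5 and 11.58, 11.67, 11.55, 11.62 and 11.69 in KO replicates 1 to 5. The WT arrays lay close together, and the highest KO array was 0.41 below the lowest of them. KO minus WT was −0.50 ± 0.05 (SE, limma adjusted p = 3.8e-06), or 1.42-fold lower, with −0.58 in batch 2 and −0.48 in batch 4.

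Psme3, which encodes the nuclear form of PA28 and is not specific to germ cells, fell further. It was 10.71, 10.90, 10.89, 10.87 and 10.92 in WT replicates 1 to 5 and 10.08, 9.91, 9.92, 10.06 and 9.99 in KO replicates 1 to 5. The highest KO array lay 0.62 below the lowest WT array, and KO minus WT was −0.86 ± 0.06 (SE, limma adjusted p = 8.7e-08), or 1.82-fold lower. Psme4 minus Psme3 was 1.27 ± 0.10 in WT and 1.63 ± 0.11 in KO (SD, n = 5 each). The groups did not overlap. The difference was 0.36 ± 0.06 (SE, exact two-sided permutation test, p = 0.00794, the smallest that these arrays can give, adjusted p = 0.0198).

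**Figure D3:**
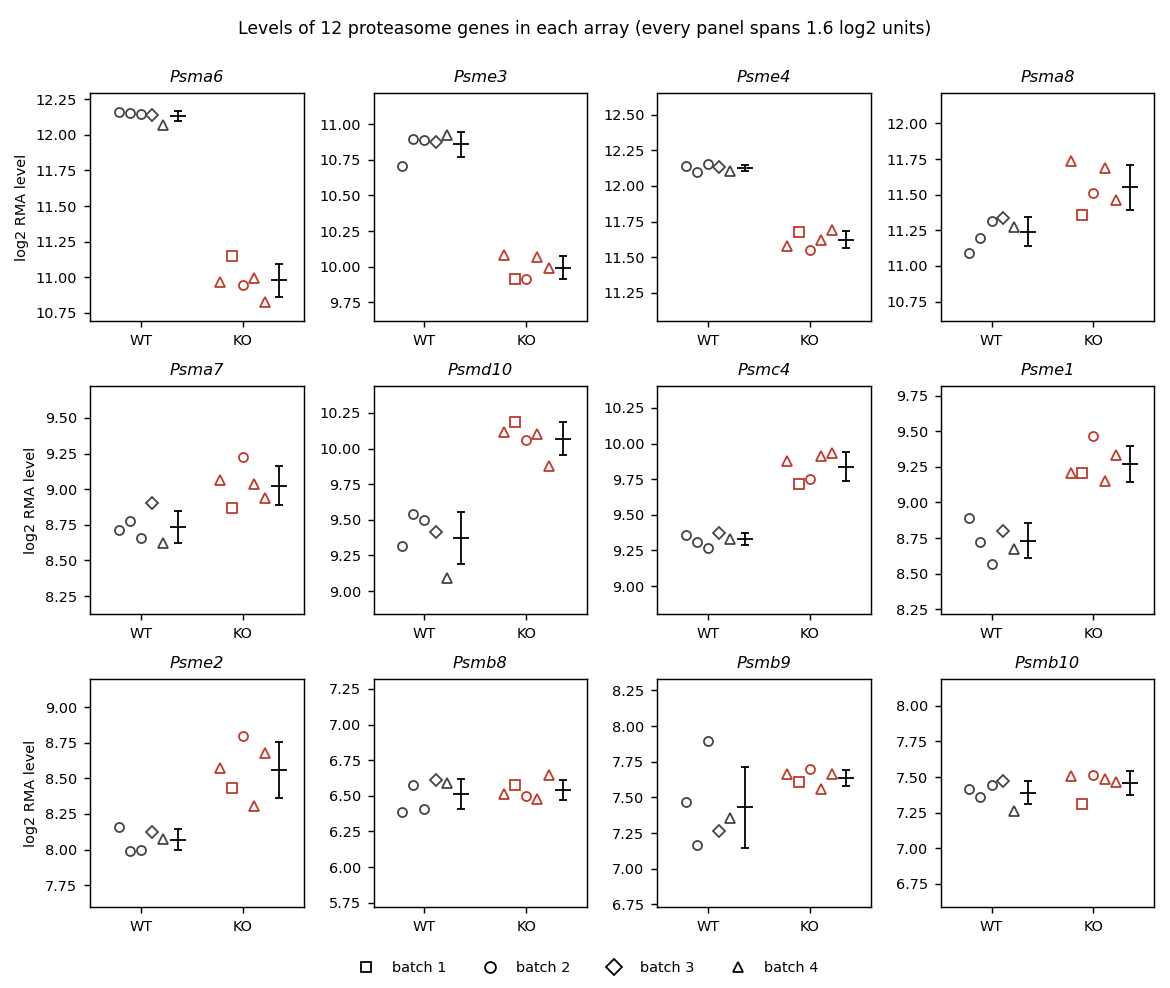
Log2 level (vertical axis) of 12 members in each WT (grey) and KO (red) array, with a symbol for each batch and the mean with SD to the right of each group. Psma6, Psme3 and Psme4 lie far lower in all KO arrays, Psmd10, Psmc4, Psme1 and Psme2 lie higher in all KO arrays, and the immune subunits Psmb8, Psmb9 and Psmb10 overlap between the groups.

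The PA28 genes that respond to interferon rose, unlike Psme3. Psme1 was 8.89, 8.72, 8.57, 8.80 and 8.67 in WT replicates 1 to 5 and 9.21, 9.21, 9.46, 9.15 and 9.34 in KO replicates 1 to 5, a rise of 0.54 ± 0.08 (SE, limma adjusted p = 8.6e-05). Psme2, its partner in the same ring and its neighbour in the genome, was 8.16, 7.99, 7.99, 8.12 and 8.07 in WT replicates 1 to 5 and 8.57, 8.43, 8.80, 8.31 and 8.68 in KO replicates 1 to 5, a rise of 0.49 ± 0.09 (SE, limma adjusted p = 4.9e-04). In both genes the KO arrays lay above all WT arrays, with KO replicate 3 the highest. A further feature, annotated to both Psme2 and its near copy Psme2b and therefore no member, stood at 6.65 ± 0.15 in WT and 7.29 ± 0.18 in KO (SD, n = 5 each). Signal from these copies cannot be told apart.

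The immune beta subunits were not called. Psmb8 was 6.39, 6.57, 6.41, 6.61 and 6.59 in WT replicates 1 to 5 and 6.51, 6.58, 6.50, 6.48 and 6.65 in KO replicates 1 to 5, and the groups overlapped throughout. Its change was 0.03 ± 0.06 (SE, limma adjusted p = 0.767). Psmb9 was 7.47, 7.16, 7.90, 7.27 and 7.36 in WT replicates 1 to 5 and 7.66, 7.61, 7.70, 7.56 and 7.67 in KO replicates 1 to 5, the widest spread of any member within WT, with replicate 3 on top. Its change was 0.21 ± 0.11 (SE, limma adjusted p = 0.161), and without WT replicate 3 it was called higher, at 0.32. Psmb10 was 7.41, 7.36, 7.45, 7.47 and 7.26 in WT replicates 1 to 5 and 7.51, 7.31, 7.51, 7.49 and 7.47 in KO replicates 1 to 5, a change of 0.07 ± 0.06 (SE, limma adjusted p = 0.437). Psmb11, the subunit known from the thymus, stood at 6.34 ± 0.05 in WT and 6.40 ± 0.18 in KO (SD, n = 5 each).

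Each immune subunit was set against the standard subunit that it replaces, within each array. Psmb10 minus Psmb7 was −3.92 ± 0.06 in WT and −4.23 ± 0.08 in KO (SD, n = 5 each). It was lower in every KO array than in any WT array, a difference of −0.31 ± 0.05 (SE; exact two-sided permutation test, p = 0.00794, adjusted p = 0.0198), with −0.25 in batch 2 and −0.23 in batch 4. Psmb8 minus Psmb5 differed by −0.16 ± 0.10 (SE; exact permutation p = 0.143, adjusted p = 0.238). Psmb9 minus Psmb6 differed by 0.02 ± 0.18 (SE; exact permutation p = 0.921, adjusted p = 0.921). A shift of the immune against the standard subunit was measured in 1 of 3 pairs, in which Psmb7 rose while Psmb10 was not called. The mean level of Psmb7 stood at percentile 97.9 of all features and that of Psmb10 at percentile 55.4, and median changes were 0.20 over features as bright as the standard subunits and 0.05 over all features. The part of this gap in level in the shift was not tested.

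**Figure D4:**
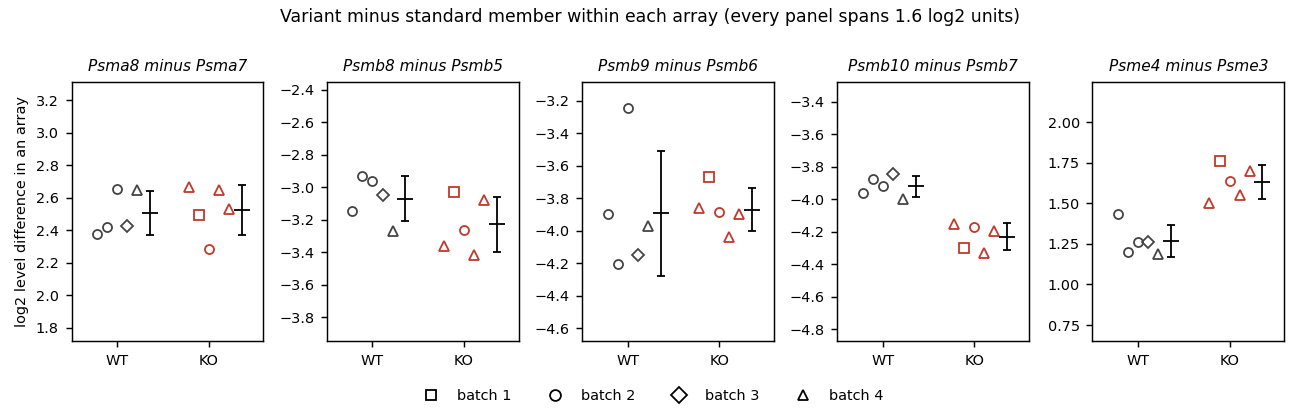
Difference in log2 level between the members of a pair within each array (vertical axis), in WT (grey) and KO (red). Each batch has a symbol, and the mean with SD is to the right of each group. Psme4 and Psme3 encode different activators, while the other pairs are a variant and its standard counterpart. Psmb10 minus Psmb7 lies lower and Psme4 minus Psme3 higher in all KO arrays, and the other 3 differences overlap between the groups.

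Genes that work with the immune subunits were examined beside them. Over all features 27.9% were called higher and 12.4% lower, with a median log2 change of 0.05. Of 10 measured genes of interferon response and antigen presentation 6 were higher and none lower, with a median log2 change of 0.30. The 3 largest were in Erap1, which trims peptides after the proteasome (1.05 ± 0.09, SE), B2m of the class I complex (0.81 ± 0.18) and the interferon-induced Ifit1 (0.69 ± 0.12), with limma adjusted p of 6.9e-07, 0.00253 and 4.7e-04. Tap1, a gene of the same list that imports peptides for antigen presentation and neighbours Psmb8 and Psmb9, was singled out here after its value was seen and rose by 0.30 ± 0.07 (0.00609). Whether the immune subunits differed from these genes was not tested.

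The 3 prefix-named chaperones of the 19S base (Psmd5, Psmd9 and Psmd10) were higher, while Paaf1, a further one, was not measured. Psmd10, which encodes gankyrin, had the largest rise of all 47 genes. Its level was 9.32, 9.54, 9.50, 9.41 and 9.09 in WT replicates 1 to 5 and 10.12, 10.19, 10.06, 10.10 and 9.88 in KO replicates 1 to 5. The groups lay 0.34 apart, and KO minus WT was 0.70 ± 0.09 (SE, limma adjusted p = 2.7e-05), a 1.62-fold rise, with 0.61 in batch 2 and 0.94 in batch 4. Psmd5 rose by 0.45 ± 0.06 (SE, limma adjusted p = 6.0e-05) and Psmd9 by 0.40 ± 0.07 (SE, limma adjusted p = 2.9e-04), without overlap in either. Psmd9 was 9.14, 8.99, 8.97, 9.19 and 9.21 in WT replicates 1 to 5 and 9.61, 9.46, 9.44, 9.50 and 9.49 in KO replicates 1 to 5.

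The chaperones of the 20S core were mixed. Psmg1 and Psmg2, whose products act as a pair in building the alpha ring, moved apart: Psmg1 rose by 0.27 ± 0.06 (SE, limma adjusted p = 0.00454) and Psmg2 fell, with a change of −0.32 ± 0.07 (SE, limma adjusted p = 0.00136). Psmg1 was 9.73, 9.61, 9.66, 9.69 and 9.52 in WT replicates 1 to 5 and 9.85, 9.77, 9.96, 9.997 and 9.96 in KO replicates 1 to 5. Psmg2 was 9.49, 9.62, 9.58, 9.49 and 9.51 in WT replicates 1 to 5 and 9.38, 9.08, 9.17, 9.28 and 9.17 in KO replicates 1 to 5, and the groups did not overlap in either gene. Psmg4 rose by 0.21 ± 0.08 (SE, limma adjusted p = 0.0471), a call that ended under 13 of 22 alternatives, among them batch as a block, the housekeeping scaling and the removal of any of 7 arrays. Its partner Psmg3 was not called, at −0.06 ± 0.08. Psmf1, which encodes the inhibitor PI31, was 10.99, 11.04, 10.92, 11.16 and 11.21 in WT replicates 1 to 5 and 10.81, 10.71, 10.80, 10.81 and 10.82 in KO replicates 1 to 5. All KO arrays lay below all WT arrays, as in 9.89% of all features, and KO minus WT was −0.28 ± 0.06 (SE, limma adjusted p = 0.00395).

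Of the 2 genes that share only the prefix, Psmc3ip rose by 0.36 ± 0.05 (SE, limma adjusted p = 1.0e-04) and Psme3ip1 was not called (−0.08 ± 0.06). Psmc3ip was 10.78, 10.89, 10.73, 10.80 and 10.79 in WT replicates 1 to 5 and 11.23, 11.16, 11.15, 11.13 and 11.13 in KO replicates 1 to 5, with a clear gap between the groups.

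Partners of the proteasome without the prefix were examined as well. Of 23 such genes 14 were measured, of which 9 were higher and 2 lower, with a median log2 change of 0.24. Among features as bright as the standard subunits 51.0% were called higher and 14.9% lower, with a median of 0.20. Over all features these shares were 27.9% and 12.4%, with a median of 0.05. Among the partners the largest change was in Nfe2l2, a regulator of the oxidative stress response that can also act on proteasome genes. It rose by 1.79 ± 0.10 (SE, limma adjusted p = 5.5e-09). Sem1, a small subunit of the lid, rose by 0.70 ± 0.07 (1.8e-06) and Txnl1, a redox protein bound to the 19S particle, by 0.52 ± 0.07 (3.9e-05). Nfe2l1, a gene of the same list singled out here after its value was seen, rose by 0.22 ± 0.07 (0.0144).

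Batch 2 and batch 4 share no array and so give separate values of each change, although each rests on a single array in one group. The sign was the same in both for 43 of the 47 genes (91.5%), with 35 positive and 8 negative in both. Over all features the share was 76.5% and over those of similar level 88.7%. For all 33 called members the sign was the same in both batches, which are part of the arrays on which they were called. Across the 47 genes, which are not independent, Pearson's r between the changes was 0.92 and Spearman's rho 0.74, against 0.93 and 0.75 over all features and 0.95 and 0.79 over those of similar level. Over the 28 standard subunits they were 0.88 and 0.44. Psma6, at −1.20 in batch 2 and −1.14 in batch 4, lay far from the other standard subunits, and r without it was not calculated.

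**Figure D5:**
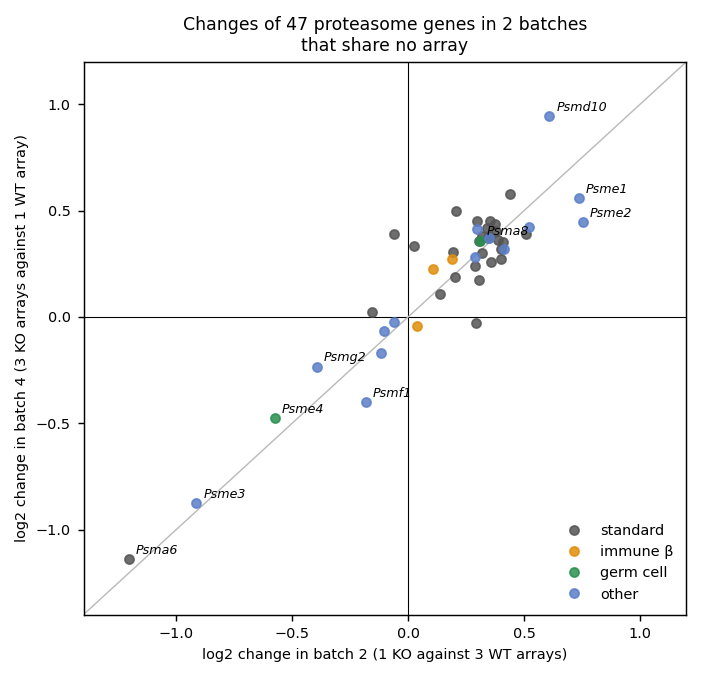
Log2 change of the 47 genes in batch 2 (horizontal axis, 1 KO array against 3 WT arrays) and in batch 4 (vertical axis, 3 KO arrays against 1 WT array), coloured by kind; the grey line marks equal changes. Psma6, Psme3 and Psme4 lie lowest on both axes, and the median of the standard subunits is 0.32 in batch 2 and 0.35 in batch 4.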

How the data were processed

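RNA of whole testis from 5 WT and 5 Crem-/- mice was measured on Affymetrix Mouse Gene 1.0 ST arrays. The authors normalised the arrays with RMA and deposited log2 values per transcript feature; the software version and genome build were not given in the sources used here. Of 35557 rows, 9868 were empty in every array, which left 25689 features. Of these 20777 had 1 gene symbol in the platform annotation, 232 several and 4680 none.

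Groups and batches were taken from the labels. KO was compared with WT by limma 3.58.1 in R 4.3.3 (lmFit and eBayes, all 10 arrays, no covariate), with Benjamini-Hochberg adjustment over all features and a threshold of 0.05. Differences between 2 members within an array were compared by an exact permutation test. The fit was also run on simulated data with few changed features and no batch effects. Both differ from these data, so that run does not bear on the batches. Alternatives were other scalings, filters and variance settings, batch as a block, single batches, and leaving out arrays. The members, gene lists and pairs were chosen with earlier results of these data known. Values per array are given for the variant members, the members they were paired with and the extremes of each class. For partner and interferon genes the 3 largest called changes are given.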

Additional observations from a re-analysis of the deposited data

Results flagged for a closer look

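In 6 of 94 groups of 5 arrays 1 array stood apart from the other 4 by Dixon's test at the 95% level, which chance alone gives in about 1 in 20 groups. In 4 of the 6 this array was KO replicate 2, the single array of batch 1. Psmb2 stood at 9.15 there and at 9.48 to 9.54 in the other KO arrays. Psmb6 stood at 11.27 there, against 11.53 to 11.60. Psmb10 stood at 7.31, against 7.47 to 7.51, and Psmf1 at 10.71, against 10.80 to 10.82. Among WT arrays, Psma6 was 12.07 in replicate 5 and 12.14 to 12.16 in the others, and Psme3 was 10.71 in replicate 1 and 10.87 to 10.92 in the others. Psma6 and Psme3 were called lower without either array, and the part of the batch in the values of KO replicate 2 was not tested.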

How the results depend on the processing

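Of the 33 called members none changed sign under any of 22 alternatives, and 6 kept their call under all of them (Psma6, Psme3 and Psme4 lower, Psmc4, Psmd10 and Psme1 higher). Most of the lost calls ended only within a single batch, where 1 array stands for a group and its spread is taken from the others. The median change of the 47 genes was 0.30 in batch 2 and 0.32 in batch 4. Over all features it was 0.06 and 0.04. Leaving out 1 array gave 26 to 30 higher and 5 lower members, a median change of the standard subunits of 0.28 to 0.30 and a Psma6 change of −1.20 to −1.12. The median change of the standard subunits was 0.34 with the block of batches and 0.35 in batch 4. The block rests on batches 2 and 4 alone, since batches 1 and 3 hold 1 array each. Psmb10 minus Psmb7 was −0.23 in batch 4. Psma8 minus Psma7 turned to −0.20 in batch 2, −0.0311 in batch 4 and −0.11 with the block, and ranged from −0.0156 to 0.0801 when 1 array was left out. Psmb9 minus Psmb6 turned to −0.0993 in batch 2, −0.0324 with the block and −0.0402 without KO replicates 2 and 3, and ranged from −0.0546 to 0.18 when 1 array was left out. Among uncalled members the sign turned for Psmb1 (−0.0619 in batch 2), Psmb11 (−0.0599 in batch 2, −0.0257 in batch 4 and −0.0428 with the block), Psmb5 (−0.0268 in batch 4), Psmb8 (−0.0419 in batch 4, −0.0011 with the block and −0.0022 to 0.0529 when 1 array was left out) and Psmc2 (0.0242 in batch 4). The cause was not tested. No paired analysis was possible because the labels carry no replicate numbers that tie WT to KO mice.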
